A study of Rattus norvegicus with 6 samples.

Results

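Cd36, a scavenger receptor, and the molecules by which cells protect themselves from phagocytosis and complement were examined in the whole blood of rats after an experimental stroke. The genes were Cd36, Cd47, Sirpa, Cd59 (Cd59b in the current annotation), Cd55 and Cd46. All probe sets that the array annotation assigns to any of these genes were taken, also where it gives several symbols, which left 11 of 31042 probe sets and 6 of 14217 genes. They were selected on values of these rats, since probe sets of Cd36, Cd47 and Cd59 had been called lower in the comparison described here. The values of that comparison are therefore given as a description and not as a test.

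Blood was taken from the heart of male Sprague-Dawley rats, 8 weeks old, 24 h after reperfusion, and was measured on 6 arrays, 1 per rat. In the 3 rats of the MCAO group (Middle Cerebral Artery Occlusion) a coated thread had closed the origin of the artery for a time, and in the 3 rats of the sham group an uncoated thread had been inserted in the same way. The MCAO rats were those of a larger operated set whose infarct index lay within a chosen window, so they stand for infarcts of similar size. The values are log2 values on the scale of DFW (Distribution Free Weighted), a summarisation that pulls the arrays together very unequally between probe sets. The range of a probe set over the 6 rats had a median of 6.55e-06, and 3.48% of probe sets ranged over more than 0.001. Differences are MCAO minus sham on this scale and are no fold changes of raw signal; limma supplied their standard error (SE). Precision is limited by there being 3 arrays per group.

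CD36 is a class B scavenger receptor of platelets, monocytes, red cell precursors and endothelium that binds thrombospondin, oxidised lipoproteins, long-chain fatty acids and dying cells. CD47 is carried by nearly all blood cells and is read by SIRPα, the product of Sirpa, on phagocytes, where it inhibits engulfment. CD55, CD46 and CD59 protect host cells from complement at successive steps. CD55 speeds the decay of the C3 convertases, CD46 serves factor I as a cofactor in cleaving C3b and C4b, and CD59 blocks assembly of the membrane attack complex. CD55 and CD59 are held in the membrane by a glycosylphosphatidylinositol (GPI) anchor.

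In the GRCr8 assembly, Cd36 lies at chr4:18209088-18302142, and 14663 bases separate it from Cd36l1 at chr4:18316806-18357863, a gene of the same family. Cd36, Cd47 and Cd55 have 2 probe sets each, here called a and b, Sirpa has 3, called a, b and c, and Cd59 and Cd46 have 1 each. Of these, 10 carry 1 symbol, and Cd36 b carries both Cd36l1 and Cd36, so that its signal cannot be assigned to Cd36 alone. Cd59b (chr3:110914008-110932489) and Sirpa (chr3:137272932-137311279) share a chromosome, as do Cd55 (chr13:44409574-44438913) and Cd46 (chr13:109104122-109134903), and Cd47 lies at chr11:64374816-64438763. The sequences of 250 bases before the start that RefSeq gives for Cd36 and Cd36l1 are shown because both genes are behind the same probe set. The Cd36 start used here lies within the span of the gene. Capitals mark matches to TATAA on either strand, where the forward match and the reverse match overlap.
Cd36, chr4:18246332-18246581, plus strand: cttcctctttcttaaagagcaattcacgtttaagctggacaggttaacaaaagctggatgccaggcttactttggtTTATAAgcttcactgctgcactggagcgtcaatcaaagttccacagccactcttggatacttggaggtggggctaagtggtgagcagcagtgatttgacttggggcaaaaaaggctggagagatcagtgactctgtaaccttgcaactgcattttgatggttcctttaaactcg
Cd36l1, chr4:18316556-18316805, plus strand: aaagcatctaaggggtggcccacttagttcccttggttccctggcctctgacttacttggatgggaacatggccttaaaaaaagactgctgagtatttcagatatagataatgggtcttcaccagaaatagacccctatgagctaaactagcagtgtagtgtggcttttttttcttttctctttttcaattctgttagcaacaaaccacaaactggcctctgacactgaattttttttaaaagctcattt
The longest run of bases that both windows share on the same strand was 8, so the windows are not copies of each other. GC content was 45.6% for Cd36 and 40% for Cd36l1, against a median of 51.2% over 33469 such windows. TATAA was found in the Cd36 window alone of the pair, and in 24.0% of all windows on either strand. CCAAT (34.0% of all windows) and AGGTCA (14.1%) were not found in either window. Matches of letters are no evidence of binding.

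Of the 11 probe sets, 4 were called lower in the MCAO group by Rank Products at a false discovery rate (FDR) under 0.05, none was called higher and 7 were not called. Over the whole array 0.561% of probe sets were called lower and 0.135% higher, and since the calls chose these genes nothing is read from the comparison of the shares. The called ones were both probe sets of Cd36, 1 of 2 of Cd47 and that of Cd59. None of the probe sets of Sirpa, Cd55 and Cd46 was called. The threshold left a wide gap, from an FDR of 0.0390 at Cd36 b to 0.634 at Cd47 b. Rank Products FDRs are estimates of proportions that are not limited to 1.

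Cd36 had a lower mean in the MCAO group, with 2 of the 3 sham rats high. At probe set a the MCAO rats 1 to 3 had log2 values of 8.4521, 8.4587 and 8.4561, and the sham rats 1 to 3 had 8.4509, 8.4686 and 8.4746. Sham rat 1 was thus the lowest of all 6 rats, whereas sham rats 2 and 3 were above every MCAO rat. The log2 difference was -0.0090 (SE 0.0069, n = 3 each, FDR 0.0234). The SD was 0.0123 in the sham group and 0.0033 in the MCAO group, so the sham rats were spread more widely than the groups were apart. At probe set b, shared with Cd36l1, the MCAO rats had 9.4503, 9.4544 and 9.4554 and the sham rats 9.4495, 9.4632 and 9.4657. Sham rat 1 was again the lowest, and the order of the sham rats was the same. The log2 difference was -0.0061 (SE 0.0050, FDR 0.0390). Taken out of the log, these differences are -0.625% and -0.425% on the compressed DFW scale, which are no percent changes of raw signal.

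Cd47, the signal against engulfment, was called at only 1 of its 2 probe sets. At probe set a the MCAO rats had 7.5587, 7.5561 and 7.5584 and the sham rats 7.5586, 7.5603 and 7.5620. MCAO rat 1 lay just above sham rat 1, and otherwise each sham rat was above each MCAO rat. The log2 difference was -0.0026 (SE 0.0012, FDR 0.0207). At probe set b the MCAO rats had 6.29829, 6.29850 and 6.29876 and the sham rats 6.29863, 6.29871 and 6.29866. The sham rats lay between MCAO rats 2 and 3, and the log2 difference was -0.000152 (SE 0.000132, FDR 0.634). The pair of Cd47 probe sets thus differed in which rats were high.

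Sirpa, whose product receives the CD47 signal on phagocytes, showed no difference of the size seen for Cd36, Cd47 or Cd59 at any of its 3 probe sets. The DFW scale pulls probe sets together unequally, so sizes on it do not compare the genes. At probe set a the MCAO rats had 6.35498, 6.35523 and 6.35556 and the sham rats 6.35520, 6.35538 and 6.35513. The MCAO rats lay on both sides of the sham rats, with a log2 difference of 2.1e-05 (SE 0.000174). The other probe sets hardly moved, with a range over the 6 rats of 5.76e-06 at probe set b and 3.81e-06 at c. At probe set c every MCAO rat lay above every sham rat, by a log2 difference of 2.25e-06 (SE 6.24e-07). It was the only 1 of the 11 probe sets whose groups did not overlap, against 4.82% of all probe sets with every MCAO rat above and 3.6% with every MCAO rat below (8.41% together). The sign at all 3 probe sets of Sirpa turned to lower after quantile normalization, so no direction is given.

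Among the complement inhibitors, Cd59 was called lower. At its probe set the MCAO rats had 7.8305, 7.8331 and 7.8285 and the sham rats 7.8307, 7.8377 and 7.8341. Here sham rat 2 was the highest, where for Cd36 and Cd47 a it was sham rat 3, and sham rat 1 lay below MCAO rat 2. The log2 difference was -0.0034 (SE 0.0023, FDR 0.0206). Cd55 and Cd46, which act earlier in the cascade, were not called and had differences far smaller than that of Cd59. These sizes do not compare the genes, since the scale is compressed unequally between probe sets. Cd46 and Cd55 b were also dim, with a lower mean in 33.0% and 46.5% of probe sets, and could not be told from background. For Cd55 a a lower mean was found in 58.8% of probe sets, and the values hold no estimate of background by which to judge it. Cd55 ranged over 1.93e-05 at probe set a and over 8.14e-05 at b, with log2 differences of -3.28e-06 (SE 5.66e-06) and -1.14e-05 (SE 2.28e-05). Cd46 ranged over 3.77e-06, with a log2 difference of -2.93e-07 (SE 1.19e-06). The sign at all 3 of these probe sets turned after quantile normalization, so no direction is given; it also turned after centring of the arrays, which adds the same amount to every probe set and so turns any negative difference this near to 0.

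**Figure D1:**
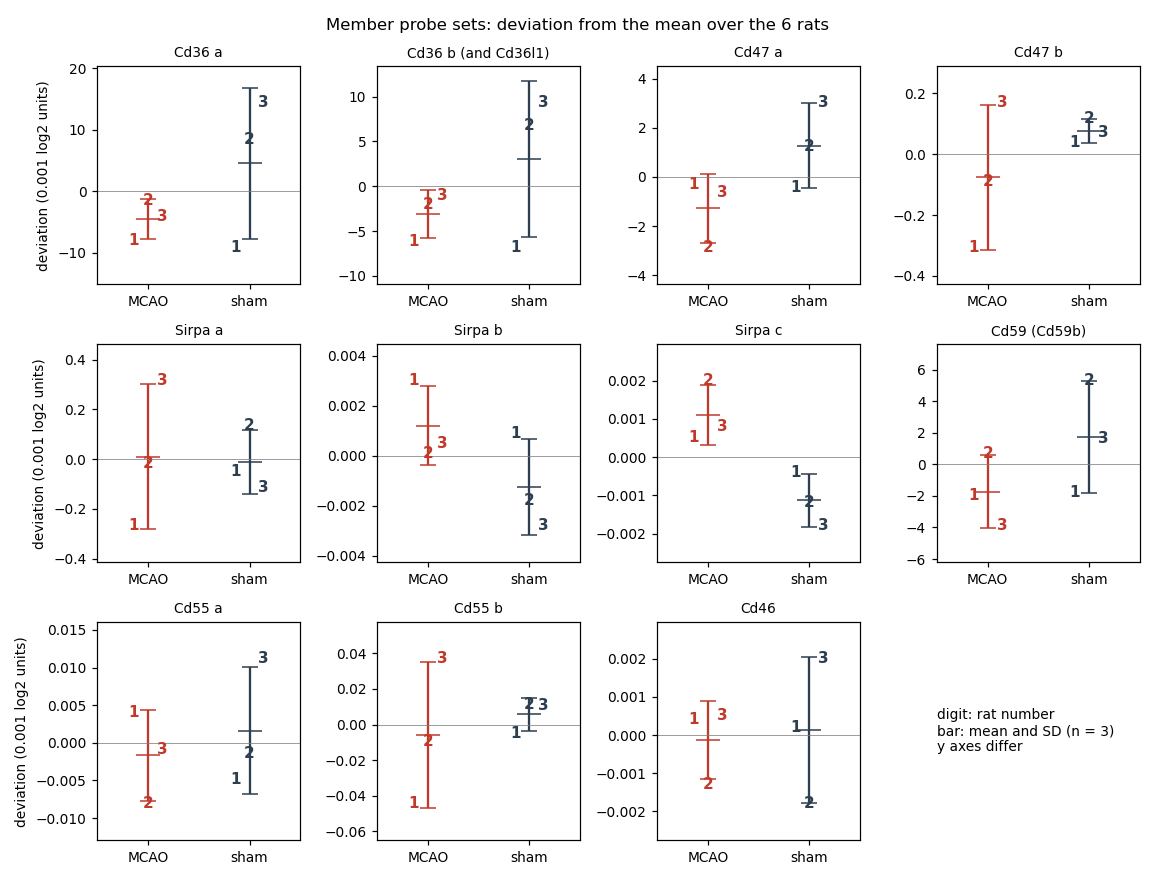
Deviation of each rat from the mean over the 6 rats (y axis, in 0.001 log2 units on the DFW scale) for the 11 probe sets. A digit gives the number of the rat within MCAO or sham, a bar the group mean with its SD over 3 rats, and each panel has its own y scale. Sham rats 2 and 3 were high and sham rat 1 low at both Cd36 probe sets, and the groups did not overlap at Sirpa c alone, whose range was 3.81e-06.

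The called probe sets were also those that varied most between rats. Their ranges over the 6 rats were 0.0237 and 0.0162 for Cd36, 0.0092 for Cd59 and 0.0059 for Cd47, and 99.8%, 99.7%, 99.4% and 99.2% of all probe sets had a smaller range. The other 7 ranged over less than 0.001, and 5 of them over less than 0.0001. They were still spread over the array's ranks, with a smaller range in 95.3% of probe sets for Sirpa a, 94.7% for Cd47 b, 88.2% for Cd55 b, 73.6% for Cd55 a, 46.7% for Sirpa b, 36.3% for Sirpa c and 36.0% for Cd46. Calls of lower probe sets were concentrated in the same way over the array, where 173 of the 174 lay among the 1000 with the largest range (17.3% of those). Divided by the SD within groups, the log2 difference was -1.0 at Cd36 a, -0.953 at Cd36 b, -1.16 at Cd59 and -1.63 at Cd47 a. The median size of this ratio over all probe sets was 0.594, and 26.6%, 28.9%, 20.9% and 9.82% of them, in this order, had a larger one. Among the uncalled probe sets it was 3.04 at Sirpa c (1.42% with a larger one), 1.36 at Sirpa b (15.1%) and -0.886 at Cd47 b (32.2%). It was -0.447 at Cd55 a, -0.385 at Cd55 b, -0.194 at Cd46 and 0.0927 at Sirpa a. The calls thus went to probe sets with a wide spread and not to those with the largest difference relative to it. No level is compared between genes, since probe sets differ in brightness for reasons of their own.

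**Figure D2:**
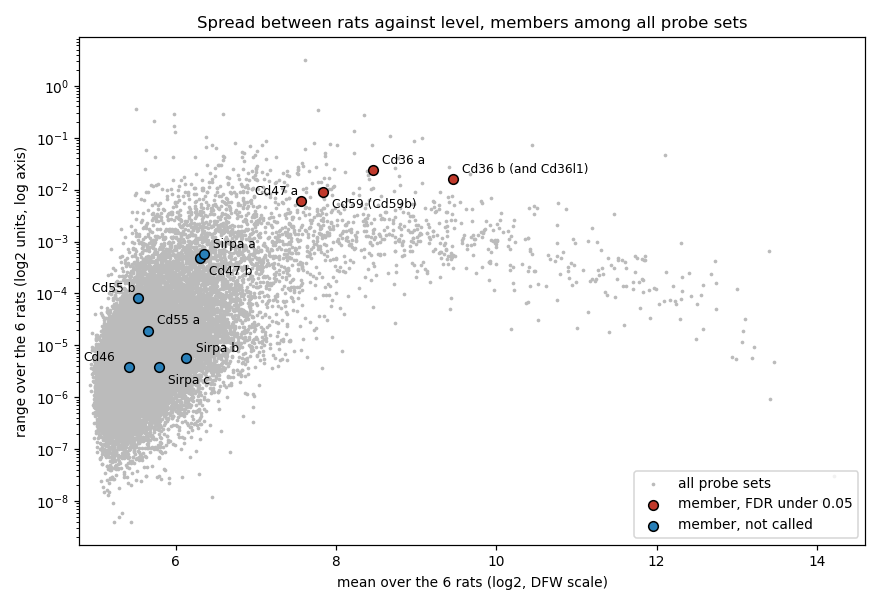
Range over the 6 rats (y axis, log2 units on a log axis) against the mean over the 6 rats (x axis, log2, DFW scale) for all probe sets (grey) and the 11 examined (red where called lower at an FDR under 0.05, blue otherwise). The 4 called probe sets ranged over more than 0.005 and the other 7 over less than 0.001.

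The calls rested on sham rats 2 and 3. Without sham rat 2 or without sham rat 3 none of the 4 probe sets was called, with FDRs from 0.296 to 0.677 and from 0.293 to 0.744. Over the array the 174 lower calls became 21 and 13, and 43 without sham rat 1, so the loss was not particular to these genes. Cd36 alone was called without sham rat 1, with FDRs of 0.0153 and 0.0263 at its probe sets, whereas Cd47 (0.0814) and Cd59 (0.0726) were not. Without MCAO rat 2 the call of Cd47 was lost (0.0571), and without MCAO rat 3 that of Cd59 (0.0586). Over the array, sham rat 2 or 3 was the highest of the 6 rats in 161 of the 174 probe sets called lower and in all 4 of those examined here. After quantile normalization Cd36 a was called (FDR 0.0173) and the others were not (0.149 to 0.487). With scaling by the range Cd36 a was again the only 1 called (0.0472), and among brighter probe sets the call of Cd36 b was lost (0.0657). The lower calls over the array became 80 after quantile normalization, 79 with scaling and 92 among brighter probe sets. By limma none of the 11 was called after adjustment, beside 0 over the array. At an unadjusted p under 0.05 there were 1150 over the array and 1 of the 11. This was Sirpa c, whose sign turned after quantile normalization, so no direction is given, and none of the 4 called by Rank Products was among them. The log2 difference kept its sign at these 4 probe sets in the 9 other settings in which it was computed. Of these settings, the replicate block leaves the difference as it is by construction. Centring moved it by far less than its size (at Cd36 a from -0.009043 to -0.009013), so neither could turn the sign.

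**Figure D3:**
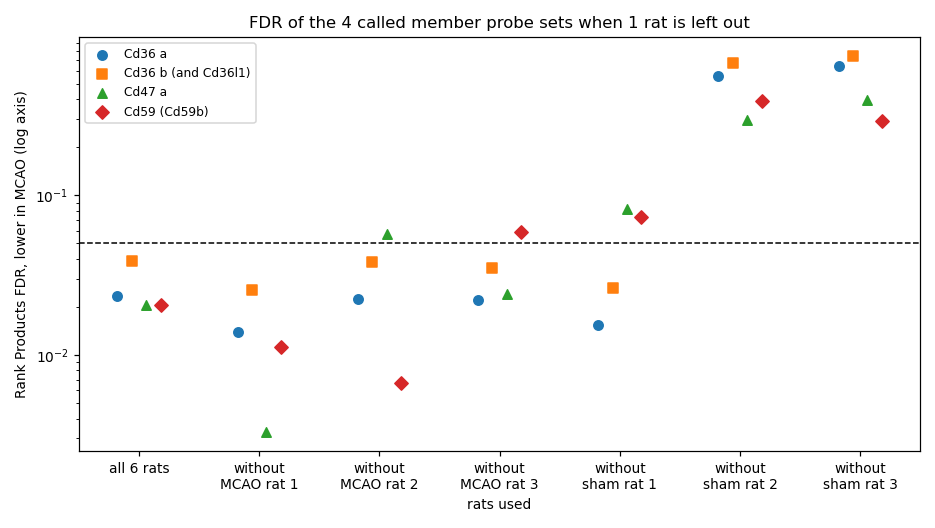
Rank Products FDR for lower values in the MCAO group (y axis, log axis) of the 4 called probe sets with all 6 rats and with each rat left out (x axis), where the dashed line marks the threshold of 0.05. All 4 rose above the threshold without sham rat 2 or 3, to at least 0.293, and Cd36 remained under it whichever other rat was left out.

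How the probe sets varied from rat to rat was described by Pearson's r over the 6 rats, and by r over the deviations from the group means, which leave the group difference out. All values share the same 6 arrays, so no p is given. The Cd36 probe sets followed each other closely, with r = 0.986 over the rats and 0.982 over the deviations. The Cd47 probe sets did not, with 0.345 and 0.013, and neither did those of Cd55, with -0.0028 and -0.067. Cd36 a had r = 0.744 with Cd59 and 0.718 with Cd47 a, and 0.635 and 0.577 over the deviations. Cd47 a and Cd59 had 0.415 with each other and 0.012 over the deviations, so they shared little beyond the group difference.

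A second set of probe sets with a common pattern was formed by Cd47 b, Sirpa a and Cd55 b, none of them called. All 3 were lowest in MCAO rat 1 and highest in MCAO rat 3, with the sham rats between them. Over the deviations their r was 0.954 for Cd47 with Sirpa, 0.991 for Cd47 with Cd55 and 0.918 for Sirpa with Cd55. MCAO rat 1 was also the lowest and MCAO rat 3 the highest of the 6 rats in the mean over all 14217 genes (5.8934 and 5.8937). In that mean, which widely ranging genes affect most, this order was not particular to these probe sets. The median over all probe sets was lowest in MCAO rat 1 too (5.56433). It was not highest in MCAO rat 3 (5.56439), since sham rats 2 and 3 had 5.5644. The grouping was noticed in these values and was not tested. Some of the other uncalled probe sets also followed or opposed the called ones, on a far smaller scale. Cd55 a had r = 0.837 with Cd47 a (0.953 over the deviations), Sirpa c had -0.95 with Cd47 a (-0.978) and Sirpa b had -0.926 with Cd36 a (-0.903).

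**Figure D4:**
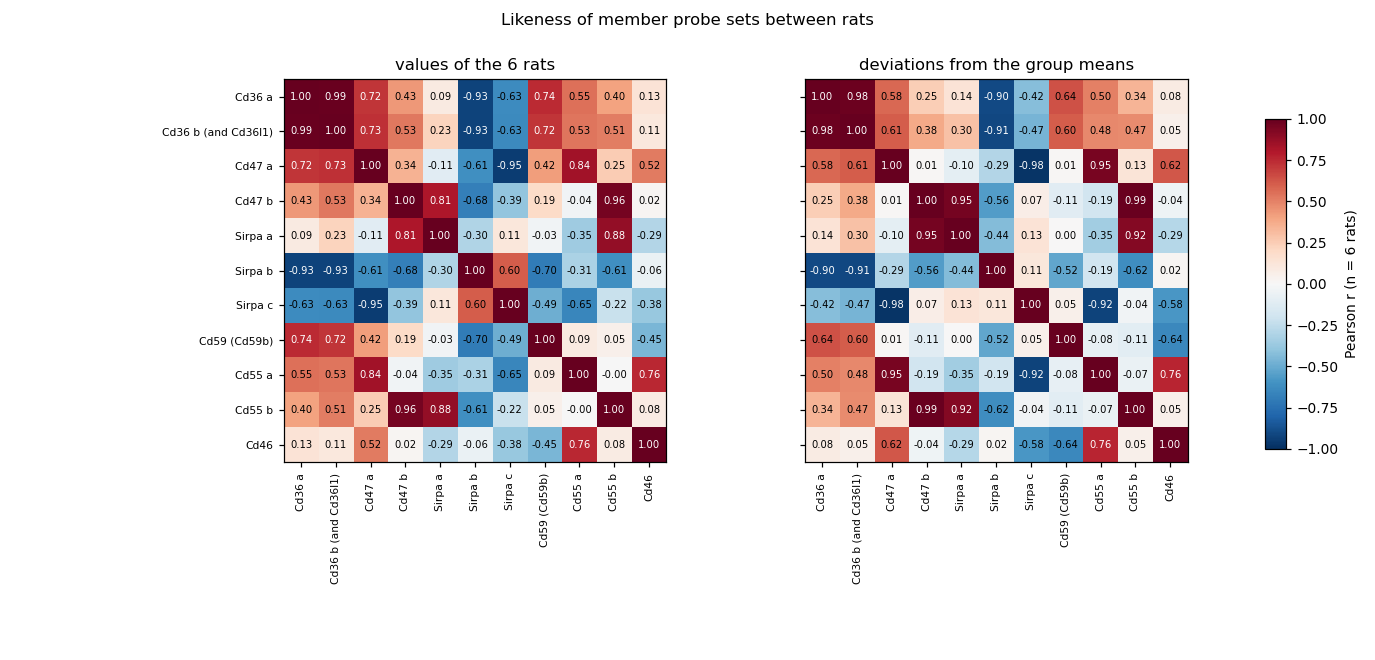
Pearson r (colour and number, n = 6 rats) between the 11 probe sets over the values of the rats (left) and over their deviations from the group means (right). The Cd36 probe sets correlated at 0.986 and 0.982, and Cd47 b, Sirpa a and Cd55 b formed a second block with 0.918 to 0.991 on the right.

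The probe sets with 1 symbol most like Cd36 a over the 6 rats were those of Uchl5 (r = 0.998), a proteasome-associated deubiquitinase, Arpp21 (0.994), and Thoc3 (0.991), a subunit of the THO complex of mRNA export. For Cd47 a they were Cxcr5 (0.993), the chemokine receptor of follicular B cells, Itsn1 (0.992), an endocytic scaffold, and R3hdm2 (0.991). For Cd59 they were Tnfsf12 (0.982), a cytokine of the TNF family, Zfp81 (0.977) and Osbp (0.976), an oxysterol-binding protein. These probe sets hardly moved, with ranges from 4.49e-06 to 0.000308, and none was called. Among 20816 probe sets, 46 had an r over 0.95 with Cd36, 79 with Cd47 and 24 with Cd59.

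The wider pathways were followed in 6 lists that hold none of the genes above, with 1 probe set per gene. By Rank Products, 0.851% of all genes were called lower and 0.141% higher. Of 34 measured genes of CD36 signalling and fatty acid handling, Acsl1 was called lower, none was called higher and 33 were not called. Acsl1, which activates long-chain fatty acids, had 6.9673, 6.9653 and 6.9647 in the MCAO rats and 6.9664, 6.9680 and 6.9679 in the sham rats. MCAO rat 1 lay above sham rat 1, and the log2 difference was -0.0017 (SE 0.00088, FDR 0.0311). Cd81, a tetraspanin, had -0.000398 (SE 0.000263, FDR 0.306). Of 24 other scavenger and apoptotic-cell receptors none was called. The log2 differences of that list ran from -4.36e-06 to 0.000114, the highest being that of Itgb3, the β3 integrin chain, followed by Itgav (4.92e-05), the αv chain.

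Partners of CD47 and SIRPα and other inhibitory signals of phagocytosis gave no call among 24 measured genes. Lilrb4, an inhibitory receptor of myeloid cells, had a log2 difference of 0.0020 (SE 0.0042) and Skap2, an adaptor that binds SIRPα, had -0.000732 (SE 0.0010). Of 12 complement regulators none was called. Cr1l, the rodent regulator Crry that inhibits C3 deposition, had -3.06e-05 (SE 6.62e-05), and Clu, which encodes clusterin, had 7.72e-05 (SE 0.000308). Of 27 complement components and receptors, Cr2, the complement receptor of B cells, and also in the B cell list below, was called lower with -0.000833 (SE 0.00033, FDR 0.0460). C5ar1, the receptor of C5a, had 0.0015 (SE 0.0029) and was not called. Of 21 genes of GPI anchor synthesis none was called, Dpm1 having -0.000504 (SE 0.000397) and Pigx -5.81e-05 (SE 0.000124). Neither Acsl1 nor Cr2 was called when any of the sham rats or MCAO rat 2 was left out, where 0 genes of these lists were called. The medians of the 6 lists lay between -5.56e-07 and 7.01e-07, beside -3e-09 over all 14217 genes.

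Cell type markers moved beside these genes. In whole blood, fewer cells of a type and less RNA per cell cannot be told apart. Of 15 measured erythroid and reticulocyte markers, 15 had a lower mean in the MCAO group, and Tfrc, the transferrin receptor of maturing red cells, was the only 1 called (log2 difference -0.0066, SE 0.0049, FDR 0.0207). Epb41, a protein of the red cell membrane skeleton, was next with -0.0013 (SE 0.00070, FDR 0.080). Over all genes 50.2% had a lower mean. The mean level of this list lay between 9.3539 and 9.3544 in the MCAO rats and at 9.3542, 9.3550 and 9.3560 in the sham rats, so that sham rat 1 lay among the MCAO rats and sham rat 3 was the highest, as for Cd36. A mean level depends most on the few genes of a list that range widely on this unequal scale. Here the median log2 difference of the list was -0.0001375, beside -0.0066 at Tfrc. An r with a mean level, here and below, therefore does not describe a list gene by gene. The r of the erythroid mean level over the 6 rats was 0.897 with Cd36 a, 0.834 with Cd36 b, 0.823 with Cd47 a and 0.660 with Cd59. Over the deviations it was 0.856, 0.770, 0.696 and 0.473. The part of red cell RNA in the values of Cd36, Cd47 and Cd59 was not tested.

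Of 9 B cell markers 3 (Ms4a1, Cr2 and Fcmr) were called lower, of 15 T cell markers 2 (Cd3g and Tcf7) and of 10 NK cell markers 2 (Prf1 and Ccl5). The MCAO mean was lower for 8 of these B cell, 13 of the T cell and 10 of the NK cell markers. It was lower for 6 of 14 monocyte and 3 of 10 neutrophil markers. Lower means throughout a list were thus not particular to the erythroid markers. Groups without overlap, with MCAO lower, were seen for 6 B cell, 1 T cell, 0 NK cell and 0 erythroid markers. Over all 14217 genes this held for 584. Of the 9 markers of all cell types called lower, Tfrc included, none was called without sham rat 2 or without sham rat 3. A few genes had by far the largest log2 differences of these lists. They were -0.0051 at Ms4a1 and -0.0048 at Fcmr, beside a median of -6.97e-05 for the B cell list. In the NK cell list they were -0.0076 at Ccl5 and -0.0049 at Prf1, beside -0.000113. For T cells Tcf7 had -0.0060, beside -3.65e-05. The r of Cd36 a was 0.832 with the mean level of the B cell list, 0.795 with that of T cells and 0.432 with that of NK cells. Over the deviations it was 0.773, 0.706 and 0.290. Cd36 b had 0.843 with the B cell list (0.806 over the deviations) and 0.813 with the T cell list (0.739). Cd59 had 0.618 (0.350) and 0.701 (0.545), and Cd47 a had 0.608 (0.188) and 0.396 (-0.0381). The erythroid list was thus not the only one whose mean level Cd36 and Cd59 followed. The part of lymphocyte RNA was not tested either. For platelet markers, of cells that carry CD36, 10 of 11 had a higher mean and none was called, with the largest log2 differences at F2rl2 (0.0027, SE 0.0028), a thrombin receptor, and Treml1 (0.00045, SE 0.00048), a receptor of platelet granules. The r of this list over the 6 rats was 0.281 with Cd36 a and 0.392 with Cd36 b, and it was 0.577 and 0.698 over the deviations. Within the groups Cd36 thus followed the mean level of the platelet list more closely than across them. Their mean level ran from 8.3501 to 8.3513 in the MCAO rats and from 8.3496 to 8.3506 in the sham rats, so the groups overlapped. None of 14 monocyte markers was called, and r with Cd36 a was 0.281 (0.327 over the deviations). Their largest differences were those of Csf1r, the receptor of macrophage colony-stimulating factor, with -0.0013 (SE 0.0016), and Mpeg1, a pore-forming protein of macrophages, with 0.0013 (SE 0.0035). The endothelial list of 9 genes, none called, had mean levels of 5.941023, 5.941026 and 5.941041 in the MCAO rats and 5.941024, 5.941021 and 5.941019 in the sham rats. Of its genes 8 of 9 had a higher mean in the MCAO group, the opposite of Cd36, with Vwf, which encodes von Willebrand factor, at 3.63e-05 (SE 5.09e-05) and Cldn5, a tight junction protein, at 8.27e-06 (SE 8.75e-06). Its r with Cd36 a was -0.396.

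The monocyte list had its lowest mean level in MCAO rat 1 (6.1946) and its highest in MCAO rat 3 (6.2011), with MCAO rat 2 (6.1973) and the sham rats (6.1964, 6.1996 and 6.1971) between them. It had r = 0.977 with Sirpa a, 0.913 with Cd55 b and 0.837 with Cd47 b. For the neutrophil list of 10 genes r was 0.958, 0.908 and 0.807 with the same probe sets, and over the deviations 0.959, 0.965 and 0.985. The NK cell list, with 6.1417, 6.1436 and 6.1464 in the MCAO rats and 6.1444, 6.1468 and 6.1446 in the sham rats, had an r of the same size, 0.883 with Sirpa a, 0.911 with Cd55 b and 0.944 with Cd47 b, and 0.983, 0.917 and 0.936 over the deviations. MCAO rat 1 was the lowest there too, and sham rat 2 the highest. The pattern of these 3 probe sets was thus shared with the mean levels of marker lists of several cell types. Csf3r, the receptor of granulocyte colony-stimulating factor, was called higher with a log2 difference of 0.013 (SE 0.019, FDR 0.0333). The MCAO rats had 6.3596, 6.3769 and 6.4259 and the sham rats 6.3763, 6.3731 and 6.3737. MCAO rat 1 was thus the lowest of the 6 rats and MCAO rat 3 the highest. No cell type marker was called higher without MCAO rat 2 or without MCAO rat 3. S100a9, a calprotectin subunit, was called lower (FDR 0.0425) although its mean was higher by 0.0027 (SE 0.028). These correlations over 6 rats describe the same arrays, and the part of myeloid or NK cell RNA in Sirpa, Cd55 and Cd47 was not tested.

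**Figure D5:**
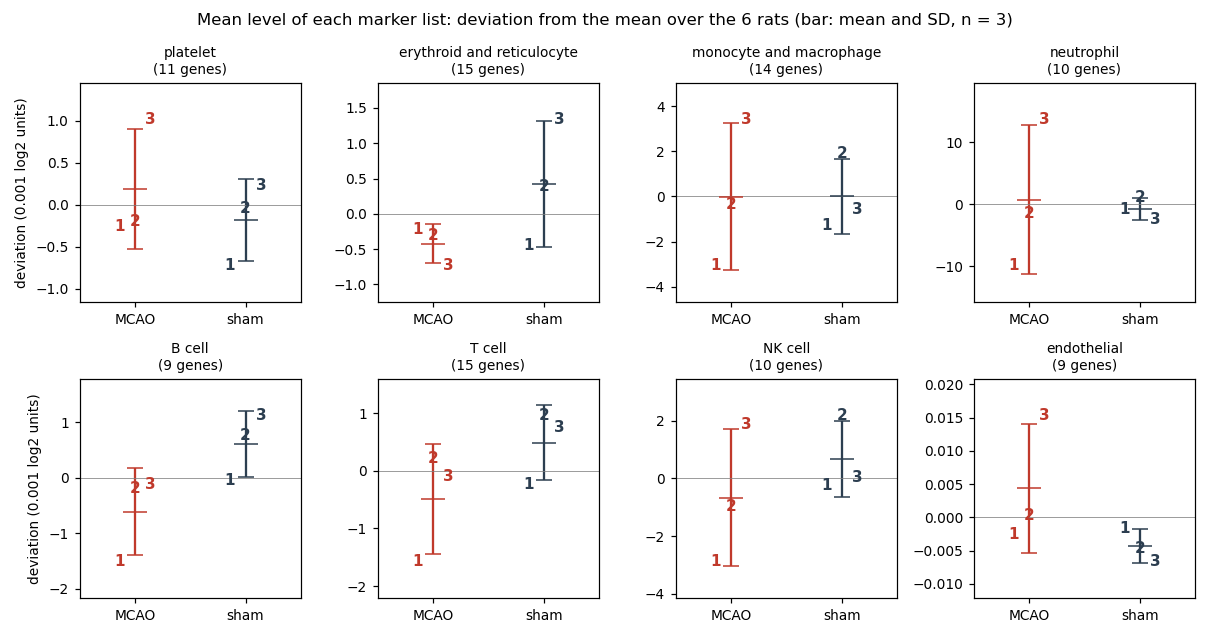
Mean log2 level of each cell type marker list as a deviation from the mean over the 6 rats (y axis, in 0.001 log2 units), drawn as in the plot of the 11 probe sets, with digits for rats and bars for the group means and SDs over 3 rats. Sham rat 1 lay among the MCAO rats and sham rat 3 was the highest for the erythroid list, and MCAO rats 1 and 3 marked the lowest and the highest value of the monocyte and neutrophil lists.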

How the data were processed

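RNA of 6 whole-blood samples was measured on Affymetrix rat genome arrays. DFW in R was the authors' normalization of all 6 arrays, and the deposited log2 table has a single value for every probe set in each rat. The log base is not stated and was taken from the values, which lie between 4.93 and 14.43. Of 31099 probe sets, 57 control probe sets were left out. Symbols came from the annotation of the array, and 20758 of 20826 probe sets with 1 symbol matched GRCr8 by gene ID. Another 436 probe sets have several symbol entries and 9780 have none. Sequences are RefSeq, GRCr8.

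Rank Products was written in Python 3.11.15 with numpy 2.4.6 (9 differences between an MCAO and a sham rat, 100 permutations within arrays, FDR under 0.05, ranked over 31042 probe sets). limma 3.58.1 in R 4.3.3 gave differences and SEs. Both were run on simulated data with known changes, with equal SDs and with the own SD of each probe set. For Rank Products a pass was required only with equal SDs, which these data do not have. For a gene of a list, its brightest probe set on average was used. Named were all probe sets of the 6 genes, in each list the called genes and the 2 with the largest difference, and the 3 probe sets most correlated with Cd36, Cd47 and Cd59. Genes and lists were chosen with earlier results of these data known. Correlations with marker lists were added after the values were seen. Alternatives were limma, same-numbered rats as blocks, quantile normalization, centring, brighter probe sets, scaling by range, control probe sets kept, other probe sets and leaving out each rat. The miRNA arrays were not used here. No batch is given in the sources used here.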

Additional observations from a re-analysis of the deposited data

How the results depend on the processing

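Of the values recomputed under another setting, 160 stayed within the spread or within 1.5 times the count, 55 moved further, and no called difference reversed. The number of the 11 probe sets called lower was 4, and became 1 after quantile normalization, 1 with each probe set scaled by its range to the power of 0.75 and 0 by limma, where 1 of the 11 (Sirpa c), 8 of 228 list genes and 1150 of all probe sets had an unadjusted p under 0.05. It was 0 to 4 when a rat was left out. For the whole array the 174 lower calls became 0 by limma, 80 after quantile normalization, 92 among brighter probe sets and 79 with scaling, and 13 to 338 without a rat (13 without sham rat 3, 21 without sham rat 2, 43 without sham rat 1, 338 without MCAO rat 3). The 42 higher calls became 0, 24 and 27 by limma, quantile normalization and scaling, and 13 to 61 without a rat. The 2 pathway genes called lower became 0 by limma and among brighter probe sets, and 1 after quantile normalization and with scaling, and 0 to 2 without a rat. The 9 cell type markers called lower became 0 by limma, 4 after quantile normalization and 1 with scaling, and 0 to 15 without a rat, and the 1 called higher became 0 under each of these and among brighter probe sets, and 0 to 2 without a rat. The cause was not tested. Centring shifts all differences alike and by construction leaves Rank Products as it was, and the replicate block leaves each log2 difference as it was. These fixed values are among the 160 that stayed. With 1000 permutations, an alternative chosen after seeing the data, 190 probe sets were called lower and the same number of the 11, 4.

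The flat probe sets moved by more than their SD within groups. After quantile normalization the log2 differences were -5.60e-05 and -3.84e-05 for Sirpa b and c, 3.51e-05 for Cd55 b and 7.82e-06 for Cd46. After centring, which adds the same amount to every probe set, they were 3.22e-05 and 3.20e-05 for these Sirpa probe sets, 2.65e-05 and 1.84e-05 for Cd55 a and b, and 2.95e-05 for Cd46. For Cd36 the difference without a rat ran from -0.0159 to -0.0041 at probe set a and from -0.0111 to -0.0030 at b, for Cd47 a from -0.0034 to -0.0017 and for Cd59 from -0.0052 to -0.0017.

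The labels number the rats 1 to 3 in each group. Same-numbered rats deviated with r = 0.211, 0.040 and 0.0661 over 31040 probe sets. MCAO rats 1 and 2 each correlated best with the sham rat of the same number, and MCAO rat 3 with sham rat 2 (0.166). These values do not settle whether the numbers mark pairs, and no pairing was assumed. With same-numbered rats as a replicate block, 3 of the 11 probe sets were called lower (the call of Cd47 a was lost, FDR 0.0644), 288 of all probe sets were called lower and 59 higher, 1 pathway gene and 14 cell type markers were called lower and 2 markers higher. The deposited values carry no estimate of background, so dim probe sets such as those of Cd46 and Cd55 b could not be told from background.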
